A study of Mus musculus with 6 samples.

Results

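Thick filament, titin and M-band genes are described here through 9 genes of the sarcomere: Mybpc1, Mybpc2, Mybph, Ttn, Myom1, Myom2, Myom3, Smyd1 and Unc45b. They were chosen by function, as myosin-binding proteins, titin, myomesins and myosin chaperones, but with earlier results of these data known. Every non-control probe whose RefSeq accession maps to one of the symbols was used. All 9 genes were measured, out of 28553 features (18633 named genes and 9920 unnamed probes), and they had 14 probes, of which 13 passed the filter on dim probes.

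The RNA came from C2C12, an established line of mouse myoblasts whose cells withdraw from division and fuse when serum is reduced. Cells of 1 group were transfected with si-SYISL, an oligonucleotide that targets SYISL, a long non-coding RNA (3 arrays), and cells of the other with the control oligonucleotide si-NC (3 arrays). All cells were grown in 10% fetal bovine serum, transfected before confluence and then kept for 2 days in differentiation medium with 2% horse serum. Total RNA (1 µg a sample) was labelled with Cy3 and hybridised to single-colour Agilent arrays.

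In striated muscle the thick filament is built from myosin, with myosin-binding protein C bound in stripes along part of its length. Titin, a giant protein, runs from the Z-disc to the middle of the sarcomere, where myomesins cross-link the thick filaments in the M-band. Myosin heads fold only with help from the chaperone Hsp90 and its co-chaperone Unc45b, and in zebrafish the methyltransferase Smyd1 is needed for thick filaments to assemble.

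Each array carried 43020 non-control spots, of which 0 were saturated. The share well above background differed by group, at 78.2% to 84.6% on si-NC arrays and 87.9% to 90.6% on si-SYISL arrays. What this gap contributes to the results below was not tested. Replicates 1 and 3 of each group could not be counted as separate samples. Over 399 probes spotted at least 10 times, their difference was smaller than spot noise (chi-square per probe 0.219 and 0.260, against 25.0 to 166 in the other 13 pairs of arrays). They also shared the deviations of single spots from their probe's mean, with a correlation across spots of 0.788 and 0.862 (3864 to 3869 spots, which share a probe design), against 0.260 to 0.426 in the other pairs. The file headers give replicates 1 and 3 of a group the same array position, in different scans. The mean of each such pair was taken as 1 sample, so each group has 2. The labels do not tell whether replicates came from different cultures. The p-values therefore rest on a spread that may be technical, and so few arrays limit the precision. The table that named the probes gave none to SYISL, and the knockdown was therefore not checked. The muscle genes Des, Myod1 and Myog were well above background on all arrays. The summed signal of 10 muscle markers was 63.7 to 63.8 times the array 75th percentile in si-SYISL samples. In si-NC samples it was 52.2 to 57.5 times. These markers did not move together. Acta1, Actc1, Tnnt3 and Ckm were higher in both si-SYISL samples, Myod1 and Chrna1 were lower in both, and the rest overlapped. Their median difference, relative to the median of all features, was -0.04. The summed markers of satellite or reserve cells (7 of 8 measured) were at 19.6 to 20.7 in si-SYISL samples and 14.6 to 16.2 in si-NC samples. Most of that sum was Cd34 (13.0 and 12.2 in si-SYISL samples, 9.56 and 10.7 in si-NC samples). Cd34, Spry1 and Notch3 were higher in both si-SYISL samples, Hes1 was lower in both, and Pax7, Calcr and Heyl overlapped. Leukocyte markers (5 of 6) were at 2.17 to 3.22 in si-SYISL samples and 1.80 in si-NC samples, sums that are mostly Itgam. Adipocyte markers (5 of 6) were at 1.26 to 1.35 in si-SYISL samples and 1.57 to 1.64 in si-NC samples, sums that are mostly Pparg (1.09 and 1.20 in si-SYISL samples and at least 1.43 in si-NC samples), while Fabp4 was higher in both si-SYISL samples. Endothelial markers (6 of 6) were at 1.22 to 1.26 in si-SYISL samples and 1.06 to 1.14 in si-NC samples. Their median difference relative to the median of all features, which the sums do not take into account, was 0.01. Cardiomyocyte markers (6 of 6) were at 2.18 to 2.21 in si-SYISL samples and 2.28 to 2.34 in si-NC samples. Most of that sum was Gata4, which overlapped (1.65 and 1.58 in si-SYISL samples, 1.64 and 1.59 in si-NC samples). Nppb was lower in both si-SYISL samples, Nkx2-5 and Nppa were slightly higher in both, and Tnni3 and Myh6 overlapped. Fibroblast markers (8 of 8) overlapped between groups. The part of these differences in the results below was not tested.

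Setting si-SYISL against si-NC asked which genes differ when SYISL is targeted on day 2 of differentiation. Signals below are multiples of the 75th percentile of the non-control spots of the same array, given for the sample of replicates 1 and 3 first and for replicate 2 second. Differences are si-SYISL minus si-NC on the log2 scale, given ± SE (2 samples a group), relative to the median difference of all features, which was 0.16. Adjusted p-values come from limma over all features (Benjamini-Hochberg) and test the difference before that subtraction.

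Of the 9 genes, 8 lay above the median of all features, and the differences ran from -0.07 for Mybpc1 to 1.67 for Mybpc2, with a median of 0.28 where all features have 0. Before subtraction of the median, the groups were apart with si-SYISL higher for 9 of the 9 genes, and for 46.3% of all features; si-SYISL was lower in this way for 0 of the 9 and for 15.8% of features. With quantile normalisation, where the median of all features was 0.03, this held for 8 genes (not Mybpc1) and 30.3% of features, and in the deposited series matrix for 7 (neither Mybpc1 nor Ttn) and 30.4% of features. At an adjusted p of 0.05, 0 of the 9 genes passed, as did 0% of all features. The smallest adjusted p over all features, 0.0842, was shared by Mybpc2. At an unadjusted p under 0.05, 7 of the 9 genes were higher and 0 lower, against 16.8% of features higher and 5.86% lower. That split of features also depended on the scaling, with 9.51% higher and 8.90% lower after quantile normalisation, where 6 of the 9 genes were higher. A difference of at least 0.5 above the median was found for 4 of the 9 genes (Mybpc2, Mybph, Myom1 and Myom3), and for 9.69% of features. In bulk RNA, a larger number of cells that express a gene and more RNA per cell cannot be told apart.

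**Figure D1:**
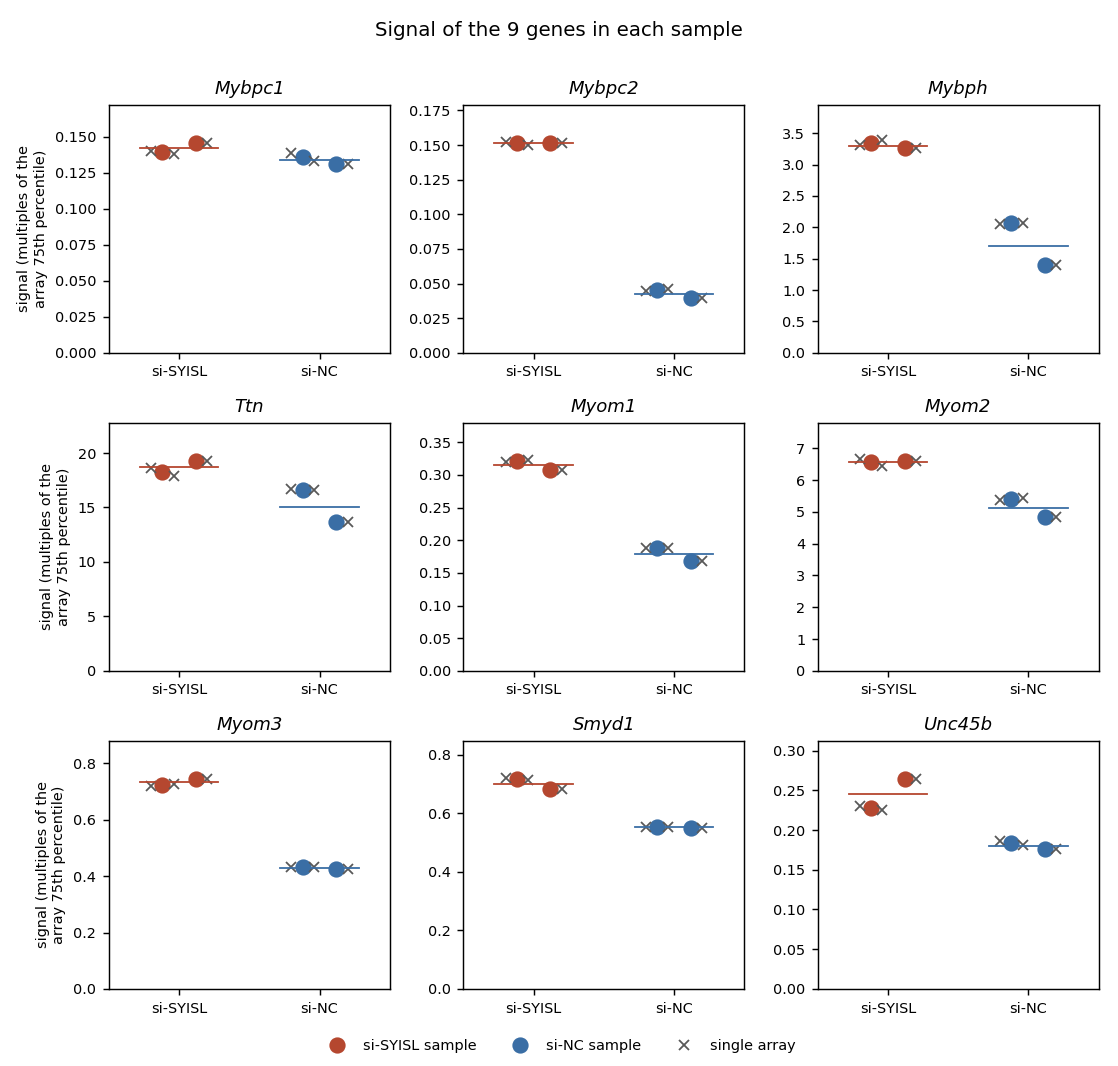
Signal of each gene in multiples of the array 75th percentile, on linear axes that start at 0 and differ between panels. Large points are the 2 samples of each group, crosses the single arrays, and lines the group means of log2 signals. Mybpc2 shows the widest gap, at 0.151 and 0.152 in si-SYISL samples against 0.0454 and 0.0397 in si-NC samples, and Mybpc1 the narrowest.

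The skeletal myosin-binding proteins C gave unequal differences. Mybpc2, the fast-muscle form, had a signal of 0.151 and 0.152 in the si-SYISL samples, against 0.0454 and 0.0397 in the si-NC samples. The si-SYISL samples agreed closely with each other and lay more than 3-fold above both si-NC samples. The difference was 1.67 ± 0.12 relative to all features (3.19-fold, adjusted p = 0.0842), and 99.7% of features had a smaller one. With normexp background correction the difference was smaller, at 1.32 ± 0.15 (adjusted p = 0.0260 in limma), and 0.641% of features passed the threshold in that setting. With 1 of the 4 samples left out, a group has a single sample that is assumed to vary like the other group, whose 2 samples alone give the spread. The adjusted p was 0.0128 (difference 1.76) when the si-NC sample of replicates 1 and 3 was left out and 0.0408 (1.60) when si-NC replicate 2 was. It was 0.289 when si-SYISL replicates 1 and 3 were left out and 0.252 when si-SYISL replicate 2 was.

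Mybpc1, the slow-muscle form, had a signal of 0.139 and 0.146 in si-SYISL samples and 0.136 and 0.131 in si-NC samples. The groups were close and did not overlap, though they did after quantile normalisation, and the difference was 0.09 before and -0.07 ± 0.11 after subtraction of the median of all features (adjusted p = 0.609). Its second probe, A_55_P2008443, was dim. Its signal was 0.0146 and 0.0169 in si-SYISL samples and not well above background on any of the 3 si-NC arrays, which gives a fold of at least 1.91 before subtraction (adjusted p = 0.186 with every probe tested on its own). With normexp background correction the relative difference of this probe was 0.29 (adjusted p = 0.337), against 1.099 without it. An average of both Mybpc1 probes gave 0.51, but it includes the si-NC signals of the dim probe and so has no exact size. The difference at Mybpc2 exceeded that at Mybpc1, read at its brighter probe, by 1.74 ± 0.08. The ratio of the 2 genes did not overlap between groups, and an exact permutation test of 2 samples against 2 cannot give a p below 0.333.

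Mybph encodes myosin-binding protein H, a smaller relative that also binds the thick filament. It had a signal of 3.35 and 3.26 in si-SYISL samples, against 2.06 and 1.40 in si-NC samples. The si-NC samples differed from each other more than the si-SYISL samples did, and both lay lower. The difference of 0.80 ± 0.22 (adjusted p = 0.141) depended on which si-NC sample was used. Against replicate 2 alone it was 1.06 and against the sample of replicates 1 and 3 alone 0.54. The adjusted p-values of these fits, 0.0285 and 0.173 in that order, take their spread from the close si-SYISL pair only and leave out that of the si-NC samples. The 2 other members of the family on the arrays were both dim: Mybpc3, the cardiac form, differed by 0.21 ± 0.11 (adjusted p = 0.176) and Mybphl by 0.11 ± 0.15 (adjusted p = 0.315).

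The sequences upstream of these genes are shown because 3 close relatives differed by such unequal amounts. RefSeq promoters of GRCm38.p6 were matched for 8 of the 9 genes; Myom2 had none in the table. Each run below is written 5′ to 3′ on the gene's own strand and ends where the annotated gene begins, and capitals mark E-boxes, the CANNTG motif that MyoD and myogenin bind.
Mybpc2, chr7:44524716-44524919, minus strand: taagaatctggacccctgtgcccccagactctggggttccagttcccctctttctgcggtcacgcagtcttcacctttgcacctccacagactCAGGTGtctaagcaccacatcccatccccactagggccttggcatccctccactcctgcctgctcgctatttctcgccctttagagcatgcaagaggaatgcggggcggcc
Mybph, chr1:134193198-134193417, plus strand: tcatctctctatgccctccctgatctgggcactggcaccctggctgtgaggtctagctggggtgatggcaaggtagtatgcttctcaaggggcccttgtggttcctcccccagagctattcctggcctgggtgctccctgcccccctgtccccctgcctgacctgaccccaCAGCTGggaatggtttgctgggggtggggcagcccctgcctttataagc
Mybpc1, chr10:88605230-88605402, minus strand: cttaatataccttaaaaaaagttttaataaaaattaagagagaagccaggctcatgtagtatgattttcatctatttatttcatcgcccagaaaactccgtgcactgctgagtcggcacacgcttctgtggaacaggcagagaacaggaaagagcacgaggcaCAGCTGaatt

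Each of the 3 runs held 1 E-box, and in Mybph and Mybpc1 it was CAGCTG. Over 250 bases before the start, CANNTG on both strands was found in 7 of the 8 genes with a promoter (Smyd1 had none) and in 66.2% of all 32851 promoters. The 7 include Myom1 and Myom3, whose windows lie inside the annotated gene and not upstream of it. The narrower CAGCTG, which is one of the CANNTG matches, was found in 2 of 8 and in 13.0% of all. The MCAT motif CATTCC, searched on both strands, occurred in Mybpc2 and Mybph and in 12.6% of all promoters. A match describes the letters of the window and not a bound site.

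Of the 3 genes with more than 1 probe that passed the filter, Ttn had the widest spread between probes. The brightest Ttn probe, A_55_P2153021, stands for the gene and had a signal of 18.3 and 19.3 in si-SYISL samples, against 16.7 and 13.7 in si-NC samples. The groups did not overlap, but the gap was narrower than that between the si-NC samples. The difference was 0.15 ± 0.15 (adjusted p = 0.273). Against si-NC replicate 2 alone it was 0.29, against the si-NC sample of replicates 1 and 3 alone 0.03, and with the Ttn probes averaged 0.40.

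Probe A_55_P2424042, the only one annotated to the Ttn transcript NM_028004, had a signal of 0.871 and 0.641 in si-SYISL samples, against 0.203 and 0.175 in si-NC samples. Both si-SYISL samples lay at least 3-fold above either si-NC sample, and 44.8% of all probes had both si-SYISL samples higher. With every probe tested on its own, where 0% of 34146 probes passed the threshold, its difference was 1.83 ± 0.20 relative to all probes (adjusted p = 0.0914). With normexp background correction it was 1.67 ± 0.18 and passed the threshold (adjusted p = 0.0274), as did 0.641% of features in that setting with 1 probe a gene. It did not pass after quantile normalisation or in the series matrix.

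The third of the probes that passed the filter, A_55_P2153031, pointed the other way. Like the brightest one it is annotated to transcript NM_011652, and it had a dim signal of 0.0179 and 0.0197 in si-SYISL samples, against 0.0251 and 0.0323 in si-NC samples. Both si-SYISL samples lay below both si-NC samples, as they did for 16.8% of all probes, and the difference was -0.76 ± 0.17 (adjusted p = 0.171). With normexp background correction it was -0.42 ± 0.15 (adjusted p = 0.364). The remaining probe, A_52_P454295, was well above background on only 2 of 3 arrays in each group and was not tested. Set against the brightest probe in the same samples, the log2 difference was 1.67 ± 0.26 larger at A_55_P2424042, and at A_55_P2153031 it differed by -0.92 ± 0.33. Neither ratio overlapped between the groups. The files give the probes no position in the transcript, so whether these values follow isoforms of titin was not tested.

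The window upstream of Ttn is shown for its pair of muscle motifs. Capitals mark 1 match to the MEF2 motif and 1 E-box, in that order.
Ttn, chr2:76982558-76982797, minus strand, GRCm38.p6: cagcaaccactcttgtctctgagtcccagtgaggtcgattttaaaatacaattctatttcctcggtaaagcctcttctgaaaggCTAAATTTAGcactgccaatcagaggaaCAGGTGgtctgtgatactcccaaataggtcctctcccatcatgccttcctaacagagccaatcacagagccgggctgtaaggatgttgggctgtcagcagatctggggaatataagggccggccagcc
The MEF2 motif, searched on both strands, was found in 2 of the 8 genes (Ttn and Myom3) and in 2.92% of all promoters. The Myom3 window lies inside the annotated gene and not upstream of it.

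**Figure D2:**
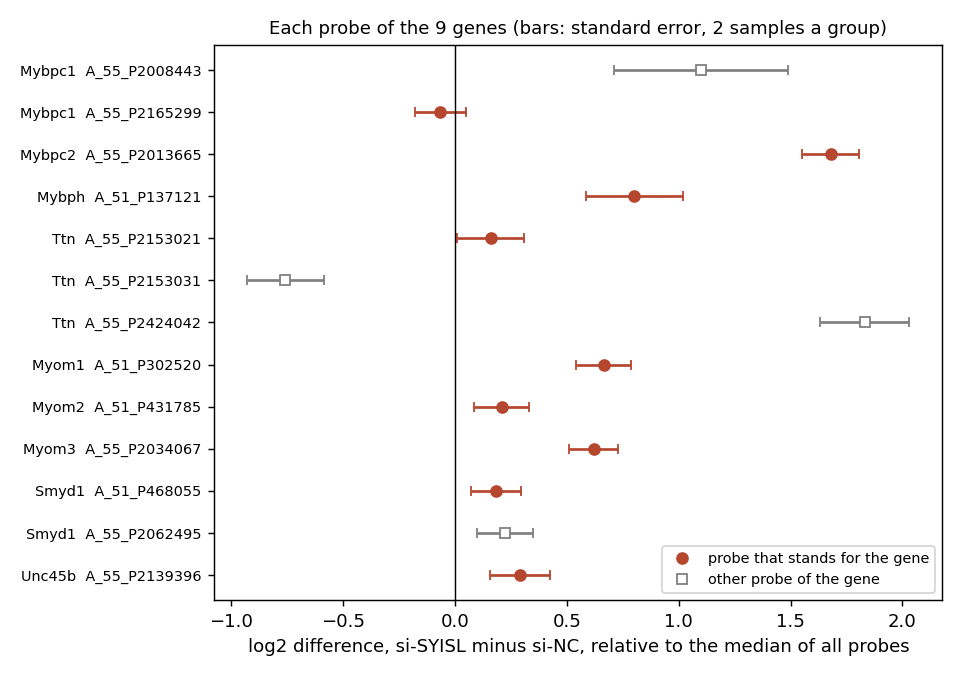
Log2 difference (si-SYISL minus si-NC) of the 13 probes that passed the filter, relative to the median of all probes, with SE bars from 2 samples a group. Filled circles stand for their gene and open squares are its other probes. The 3 Ttn probes lie at 0.16, -0.76 and 1.83, and A_55_P2008443 of Mybpc1 was not well above background on the si-NC arrays.

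The 3 myomesins gave unequal differences. Myom1, which encodes myomesin itself, the constitutive cross-linker of the M-band, had a signal of 0.322 and 0.308 in si-SYISL samples, against 0.188 and 0.169 in si-NC samples. The gap between the groups was several times the gap within either. The difference was 0.66 ± 0.12 (adjusted p = 0.109), and 93.9% of features had a smaller one.

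Myom3, a myomesin of fibres of intermediate speed, was close to it, with a signal of 0.724 and 0.745 in si-SYISL samples, against 0.433 and 0.426 in si-NC samples. Samples of a group lay close together, and the difference was 0.61 ± 0.11 (adjusted p = 0.103). Myom1 and Myom3 did not separate in the size of their difference (0.04 ± 0.08, Myom1 minus Myom3).

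Myom2, the M-protein of fast fibres, had a signal of 6.56 and 6.61 in si-SYISL samples, against 5.41 and 4.83 in si-NC samples. Its difference was 0.20 ± 0.12 (adjusted p = 0.194), which was 0.14 without si-NC replicate 2. The difference at Myom1 exceeded that at Myom2 by 0.46 ± 0.04 and the difference at Myom3 did so by 0.41 ± 0.07, and neither ratio overlapped between groups (exact permutation p = 0.333 for each, the smallest that 2 samples against 2 allow).

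The 2 genes for myosin folding and assembly gave small differences. Unc45b, the muscle co-chaperone of myosin, had a signal of 0.228 and 0.264 in si-SYISL samples, against 0.184 and 0.176 in si-NC samples. The si-SYISL samples differed from each other more than the si-NC samples did, and the groups did not overlap. The difference was 0.28 ± 0.13 (adjusted p = 0.172).

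Smyd1, the muscle lysine methyltransferase, had a signal of 0.717 and 0.681 in si-SYISL samples, against 0.554 and 0.550 in si-NC samples. Its difference was 0.18 ± 0.11 (adjusted p = 0.189), and 0.11 when si-SYISL replicates 1 and 3 were left out. A second, dimmer probe for Smyd1 gave 0.23 ± 0.12 where the first gave 0.19 ± 0.11, each with every probe tested on its own. The probes lay further apart in other settings, with the second at 0.12 and the first at 0.33 after quantile normalisation, and at 0.11 and 0.21 with normexp. Smyd1 with 1 probe a gene was at 0.32 after quantile normalisation. Smyd1 and Unc45b did not separate in the size of their difference (0.11 ± 0.15, Unc45b minus Smyd1).

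**Figure D3:**
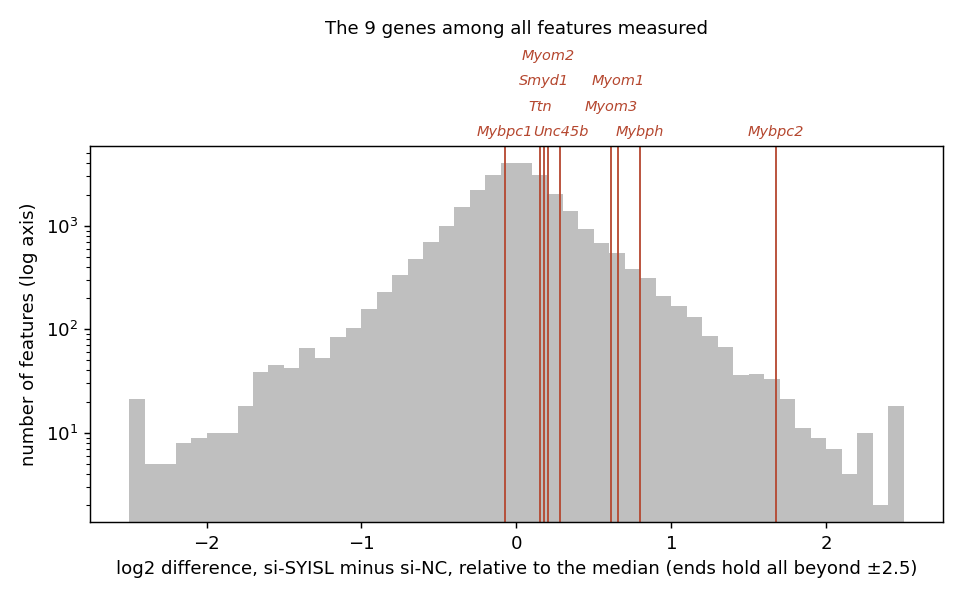
Histogram of the log2 difference of all 28553 features relative to their median (counts on a log axis), with a line for each of the 9 genes. Mybpc2 lies in the right tail, above 99.7% of features, Mybpc1 left of the middle, above 39.7%, and the other 7 between them on the right side.

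The partners of these proteins were counted from lists, at an unadjusted p under 0.05 and with 0 genes of any list past the adjusted threshold. Of 17 measured myosin heavy and light chain genes and their kinases, 11 were higher and 0 lower, with a median of 0.62, which was 0.35 with normexp background correction. The 11 include Myh15, well above background on 0 of 3 si-NC arrays, which entered through si-SYISL alone (at least 1.11-fold). With only genes well above background on all arrays the median was 0.74. Myh7b, a myosin heavy chain of slow and cardiac type, differed by 1.09 ± 0.13 (adjusted p = 0.0848). Myl4, the light chain of embryonic muscle and atrium, had a signal of 14.5 and 16.6 in si-SYISL samples, against 7.38 and 7.31 in si-NC samples (0.92 ± 0.12, adjusted p = 0.0933). Of all features, 16.8% were higher and 5.86% lower by the same rule.

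For 9 other genes of M-band proteins and their partners the median was 0.33. Of the 9, 4 were higher and 0 lower, against 16.8% and 5.86% of all features. Of these 4, Alpk2 and Igfn1 passed the filter through si-SYISL alone, Alpk2 being well above background on 0 of 3 si-NC arrays (at least 1.74-fold). With only genes well above background on all arrays the median was 0.27. That median rested on the si-NC samples, at 0.53 against replicate 2 alone and 0.13 against the sample of replicates 1 and 3 alone. Igfn1 differed by 1.57 ± 0.17 (adjusted p = 0.0842) and was well above background on 2 of 3 si-NC arrays. Ckm, the muscle creatine kinase, part of which sits at the M-band and which is also 1 of the 10 muscle markers, differed by 0.65 ± 0.15 (adjusted p = 0.123).

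Among 26 measured partners of titin at the Z-disc, in the I-band and at its kinase, 10 were higher and 2 lower, with a median of 0.13. By the same rule 16.8% of all features were higher and 5.86% lower. The 10 include Actn2, which passed the filter through si-SYISL alone. The median was 0.02 when si-NC replicate 2 was left out and 0.28 when the other si-NC sample was. Leaving out replicates 1 and 3 of si-SYISL gave 0.06, and it was 0.23 after quantile normalisation and 0.08 with only genes well above background on all arrays, which leaves out Actn2. Actn2, the alpha-actinin that anchors titin at the Z-disc, differed by 1.20 ± 0.12 (adjusted p = 0.0842), and it was well above background on 1 of 3 si-NC arrays. Xirp2, an actin-binding protein of the Z-disc region, had a signal of 0.0970 and 0.0996 in si-SYISL samples, against 0.174 and 0.171 in si-NC samples, and its difference was -0.97 ± 0.11 (adjusted p = 0.102). Fhl1, a LIM-domain protein that binds titin and is named here after its value was seen, had a signal of 0.0276 and 0.121 in si-SYISL samples, against 0.378 and 1.13 in si-NC samples. Both groups were spread widely without overlap, and the difference was -3.66 ± 0.90 (adjusted p = 0.157).

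Among 28 genes of myosin folding and general chaperones, 2 were higher and 1 lower, and the median was -0.16. For this list and the next, the shares of all features were 16.8% higher and 5.86% lower. Fkbp5, an Hsp90-binding immunophilin, differed by 0.25 ± 0.11 (adjusted p = 0.157) and Hspb8, a small heat shock protein, by -0.49 ± 0.11 (adjusted p = 0.193). Of 15 genes related to Smyd1 or acting with it, 1 was higher and 1 lower, with a median of -0.00. They were Smyd5 (0.35 ± 0.14, adjusted p = 0.162) and the deacetylase Hdac2 (-0.52 ± 0.13, adjusted p = 0.209).

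**Figure D4:**
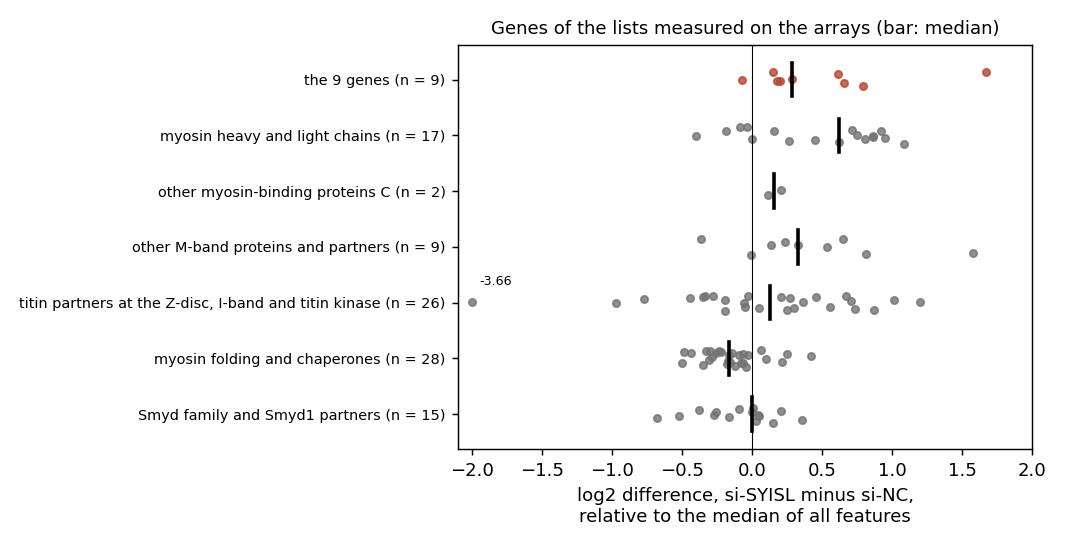
Log2 difference relative to the median of all features for each measured gene of the lists, with a bar at each list's median. The medians are 0.28 for the 9 genes, 0.62 for myosin chains and -0.16 for chaperones; Fhl1, a titin partner beyond the axis, is drawn at its end with its value of -3.66.

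The 9 genes had a mean profile, centred on each gene's own mean, of 0.32 and 0.34 in si-SYISL samples and -0.25 and -0.41 in si-NC samples. By root mean square difference over the 4 samples, the named genes nearest to it were Pard3, Mpped1, Tfap2c, Gldn and Casq2, at 0.021 to 0.028 log2 units. They differed by 0.50, 0.48, 0.48, 0.45 and 0.49, with adjusted p-values from 0.123 to 0.127. Casq2 encodes a calsequestrin of cardiac and slow muscle, while Pard3 is a cell polarity gene. With 4 samples in 2 groups, many features can come near such a profile.

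By the scan times in the headers, replicate 3 of each group was scanned apart from the other 4 arrays, so both scans hold both groups. Within the first scan Mybpc2 differed by 1.69, Mybph by 0.79, Myom1 by 0.66 and Myom3 by 0.61. Within the second, with 1 array a group and so no spread, the values were 1.60, 0.61, 0.68 and 0.66. Ttn was 0.17 in the first and 0.01 in the second. The second scan holds only the replicate 3 arrays, which differed from replicate 1 by less than spot noise. It is therefore not an independent check of the first, and it lacks replicate 2 of both groups. Leaving si-NC replicate 2 out of the samples gave 0.03 for Ttn and 0.54 for Mybph. With scan as a block and the shared sample as a random block, Mybpc2 had an adjusted p of 0.0481 in limma, at an unchanged difference of 1.67. That fit enters all arrays singly, with a correlation of 0.974 within a shared sample. Its p-value therefore draws in part on repeated arrays. The si-SYISL arrays lay at positions 3 and 4 of the slide and the si-NC arrays at positions 1 and 2, so array position and group cannot be told apart.

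**Figure D5:**
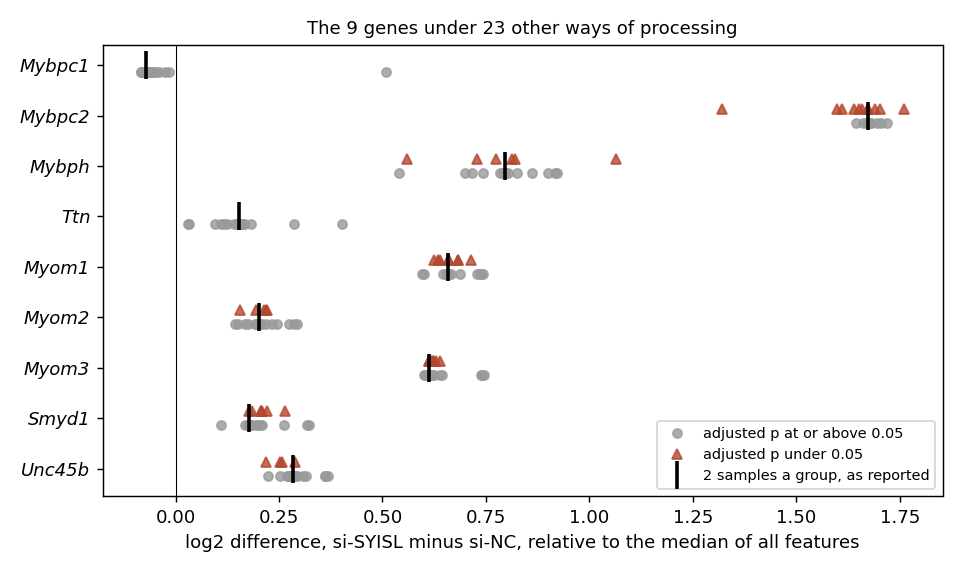
Log2 difference of each gene relative to all features under 23 other ways of processing, with a black bar at the reported value. Triangles mark an adjusted p under 0.05, most of them from fits that count all arrays as separate samples. Mybpc2 stays between 1.32 and 1.76 and Mybpc1 is above 0 in 1 of them, at 0.51, when its probes are averaged.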

How the data were processed

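Expression was measured as spot intensity in the deposited arrays, in the column gProcessedSignal. Feature Extraction (11.0.1.1 per the file headers, 10.5.1.1 per the submitters' processing notes) made it from the scans; the deposited spot flags (unit other) mark outliers, saturation and spots well above background. The deposited series matrix holds log2 values with nearly equal quantiles. The method behind them is not given in the sources used here, and they served as an alternative.

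Each signal was put on the log2 scale relative to the 75th percentile of its array, outlier spots were left out and spots of a probe averaged. Of 39429 probes, 27234 were named through their RefSeq accession (GRCm38.p6 table); 12195 stood for themselves. Probes entered the tests if all 3 arrays of either group had them well above background, and the brightest kept probe stood for its gene. A lower bound sets the dim group to no less than the dimmest probe well above background on each array.

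Groups were compared with limma 3.58.1 in R 4.3.3 (lmFit, eBayes, two-sided, threshold 0.05), tested on simulated data; figures used matplotlib 3.10.9. The design header names the older assembly mm9, so no gene coordinates are given beyond the promoter windows. The members and lists were chosen with earlier results of these data known. From each list, the 2 genes with the smallest p are named. One gene was taken out of a list and is not reported here. Other settings were normexp (offset 50, on median pixel intensities), quantile and median-shift normalisation, the series matrix, other filters, other uses of probes, a variance trend, blocks, and leaving out samples.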

Additional observations from a re-analysis of the deposited data

How the results depend on the processing

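With the 6 arrays as 6 samples, limma called 9762 features and 7 of the 9 genes (Mybpc1 and Ttn were not among them), but that fit counts replicates 1 and 3 as separate. Normexp background gave 183 features and 1 gene, and a variance trend 904 and 3. The scan block, which also enters all arrays singly, gave 83 and 1. Quantile normalisation, median shift, the series matrix, the other filters and the other uses of probes called 0. Without 1 of the 4 samples, 0 to 1381 features and 0 to 2 of the 9 genes passed (0 features without either si-SYISL sample, 276 without si-NC replicate 2, 1381 without the other si-NC sample); the lone sample is then assumed to vary like the other group, so the 276 and 1381 rest on the spread of the si-SYISL pair alone. Without 1 of the 6 arrays, limma called 3822, 12021 and 3686 features and 4, 7 and 5 genes (si-SYISL replicate 1, 2 or 3 left out), or 4248, 11465 and 4361 features and 6, 7 and 6 genes (si-NC replicate 1, 2 or 3). The median difference of the 9 genes stayed between 0.25 and 0.37, except with the mean of probes, where it was 0.51 and Mybpc1 turned to 0.51, with si-NC signals of a probe not well above background in the average. The count of genes with the groups apart was 9 or 8, and 7 in the series matrix. The median of the list around Smyd1, -0.00, lay on either side of 0: 0.0244 with the 6 arrays, 0.0269 with the filter on all arrays, -0.131 without si-SYISL replicates 1 and 3, 0.0491 without si-SYISL replicate 2, -0.0330 without si-NC replicates 1 and 3 and -0.0296 without si-NC replicate 2. Of the 6 arrays, leaving out si-SYISL replicate 1 gave 0.00192, si-SYISL replicate 2 0.0601, si-NC replicate 1 0.0174 and si-NC replicate 3 0.00967. The deviations of same-numbered samples from their group means had a correlation of -0.03 over features. With 2 samples a group, that value cannot tell whether same-numbered samples were paired. With the replicate block 0 features and 0 genes passed in limma, Mybpc2 had an adjusted p of 0.189, and the median was 0.28. Low signal over background limits the second probes of Mybpc1 and Smyd1 and the dim Ttn probes; the causes of these shifts were not tested.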
